A study of Mus musculus with 8 samples.

Results

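Nutrient restriction without retinoic acid was compared with vehicle in cultured mouse spermatogonial stem cells (SSCs), on 4 of the 8 RNA-seq libraries of the series, chosen by their labels. The 2 nutrient-restricted libraries (NR) came from cells kept for 2 days in a mixture of 10% complete SSC medium and 90% Earle's balanced salt solution (EBSS), a buffer of salts and glucose without amino acids, vitamins, lipids or protein. The 2 vehicle libraries (Veh) came from cells left in complete SSC medium for the same time. Neither group received retinoic acid (RA). The other 4 libraries, RA alone (RA) and restriction with RA (NRRA), entered the estimate of the spread between replicates and 1 test given at the end. All cultures were derived from testes of 6-day-old pups of the strain labelled C57BL/6XDBA/2, so the cells are a cultured line of germ cells and not freshly sorted ones, and all grew on irradiated embryonic fibroblasts as feeders. RNA of the feeders is therefore part of every library, and in such bulk samples fewer cells of a type and less RNA per cell cannot be told apart. The dilution lowered at once every component of the medium that EBSS lacks. These include glial cell line-derived neurotrophic factor (GDNF), fibroblast growth factor 2 (FGF2) and the N2 supplement. The lack of nutrients and the lack of growth factors therefore cannot be told apart either. Glucose is an ingredient of both SSC medium and EBSS, but its level after the dilution is not given and may have differed too.

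Cells short of amino acids are known to build up uncharged tRNA, which activates the kinase GCN2 and translation of the transcription factor ATF4, whose targets include amino acid transporters, biosynthetic enzymes and tRNA synthetases. When the kinase mTORC1 is inactive, TFEB enters the nucleus and induces lysosomal genes, while low insulin signalling lets FoxO factors enter the nucleus and low sterol activates SREBP, which induces cholesterol synthesis. In SSCs, GDNF and FGF2 act through RET and FGF receptors on the MAP kinase and PI3 kinase pathways to keep the cells undifferentiated, and *Kit* and *Stra8* mark the step towards differentiation and meiosis.

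Assigned reads summed to 21103003 and 20037794 in Veh and to 21173926 and 26944852 in NR, so that 1 CPM (the count scaled to the library's total) stood for 19.2 to 26.3 reads. The libraries of a pair were not copies of each other, since their chi-square per gene was 3.93 (Veh) and 1.58 (NR), where sampling noise alone gives 1, and the shares of reads on mitochondrial genes were 2.21% to 2.53%. The germ cell genes *Ddx4* and *Dazl* and the fibroblast genes *Col1a1* and *Pdgfrb* were present in all 4 libraries, at the values given below. Markers of somatic testis cells were low. The 7 tested Sertoli cell markers summed to 44.6 and 42.05 CPM in Veh and 48.1 and 51.8 CPM in NR (3 passed as higher, 0 as lower). The 2 Leydig cell markers summed to 7.08 and 8.65 CPM in Veh and 6.70 and 5.58 CPM in NR (0 higher, 1 lower). The 5 endothelial markers summed to 15.5 and 14.8 CPM in Veh and 11.8 and 10.1 CPM in NR (2 higher, 3 lower). Nothing in the labels says that the replicate numbers mark a shared batch, and p-values measure the spread between these libraries.

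Genes that changed at least 2-fold with an adjusted p under 0.05 were called (edgeR's quasi-likelihood test with Benjamini-Hochberg adjustment over 20477 tested genes). In NR 1092 genes, 5.33%, were called higher and 606 genes, 2.96%, lower. Of these, 552 and 331 had a mean of at least 50 counts over the 4 libraries. Without the fold threshold, 4443 genes, 21.7%, passed the test as higher and 4542 genes, 22.2%, as lower, and the median log2 fold change over all tested genes was 0.0057. "Passed" below means an adjusted p under 0.05, and the shares 21.7% and 22.2% are those over all tested genes, of any level. Shares among genes counted as well as the members of a list were not computed and may differ. A call lost or gained under an alternative setting means, below, that the adjusted p crossed 0.05, whatever the fold. The lowest NR library lay above the highest Veh library in 7134 genes, 34.8%, and the reverse held in 6999 genes, 34.2%.

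**Figure D1:**
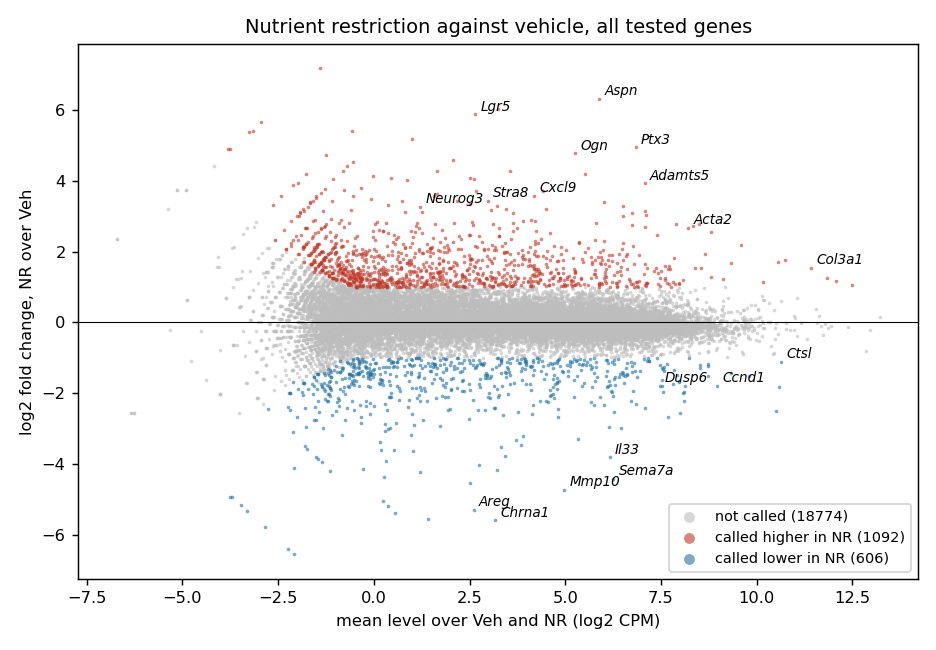
Each point is 1 tested gene, with its mean level over the Veh and NR libraries on the x axis (log2 CPM) and its log2 fold change in NR on the y axis; 5 tested genes at 0 in all 4 libraries are not drawn. The 1092 genes called higher lie above 0 and the 606 called lower below it, with *Aspn* at 6.33 and *Chrna1* at -5.60.

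Among called genes averaging at least 50 counts over the 4 libraries, the 15 largest increases were led by *Aspn*, *Dio3*, *Lgr5* and *Ptx3*. *Aspn*, which encodes the small leucine-rich proteoglycan asporin (chr13:49544443-49567565 on GRCm38), rose from 1.58 and 1.30 CPM to 118 and 116 CPM (log2 fold change 6.33 ± 0.11 SE, adjusted p = 1.9e-24). *Dio3*, the deiodinase that inactivates thyroid hormone, rose from 0.347 and 0.208 CPM to 17.8 and 19.5 CPM (log2 fold change 6.04 ± 0.21 SE, adjusted p = 1.9e-18). *Lgr5*, a receptor for R-spondins, rose from 0.0495 and 0.365 CPM to 11.7 and 12.9 CPM (log2 fold change 5.89 ± 0.29 SE, adjusted p = 3.8e-15). The Veh level rested on 7 and 4 reads for *Dio3* and on 1 and 7 reads for *Lgr5*, and the log2 fold change of *Lgr5* was 5.08 without Veh replicate 1 and 7.84 without Veh replicate 2. *Ptx3*, a soluble pattern recognition protein, was already present and rose from 7.03 and 7.24 CPM to 215 and 228 CPM (log2 fold change 4.96 ± 0.076 SE, adjusted p = 3.6e-25). In each of these 4 genes both NR libraries lay far above both Veh libraries. *Ogn* (4.78), *Sfrp4* (4.58), *Rgs4* (4.28), *Fbxl13* (4.27), *Lrrc17* (4.20), *Egfl6* (4.09), *Rtl3* (4.06), *Adamts5* (3.94), *C1qtnf3* (3.71), *Plscr2* (3.71) and *Kng1* (3.65) completed the 15 largest log2 increases. *Fbxl13* and *Lrrc17* overlap on opposite strands (2.96% of the exon bases of *Fbxl13*), and with 115 and 167 NR reads for *Fbxl13* against 1759 and 2357 for *Lrrc17*, reads of the latter may be part of the former's count.

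The 15 largest decreases were led by *Chrna1* and *Sprr2h*. *Chrna1*, the alpha subunit of the muscle acetylcholine receptor (chr2:73563215-73580338), fell from 16.7 and 18.8 CPM to 0.289 and 0.418 CPM (log2 fold change -5.60 ± 0.20 SE, adjusted p = 2.9e-18). *Areg*, the EGF receptor ligand amphiregulin, fell from 11.99 and 11.8 CPM to 0.385 and 0.228 CPM (log2 fold change -5.30 ± 0.22 SE, adjusted p = 9e-17). *Mmp10*, the matrix protease stromelysin 2, fell from 58.1 and 63 CPM to 2.31 and 2.24 CPM (log2 fold change -4.73 ± 0.10 SE, adjusted p = 6.7e-23). *Sema7a*, a membrane-anchored semaphorin, fell from 146 and 145 CPM to 7.28 and 6.42 CPM (log2 fold change -4.42 ± 0.073 SE, adjusted p = 5.5e-25). The 3 genes *Sprr2h* (-5.55), *Lce1g* (-4.55) and *Ivl* (-3.33) encode proteins of the cornified envelope of skin cells, and without NR replicate 2 *Sprr2h* was at -6.59 and *Lce1g* at -5.79. The NR levels of several genes named here rested on few reads, 6 and 11 for *Chrna1*, 8 and 6 for *Areg*, 1 and 4 for *Sprr2h* and 4 and 18 for *Lce1g*. *Cck* (-4.16), *Entpd1* (-4.04), *Il33* (-3.81), *Sox7* (-3.79), *Disp2* (-3.53), *Stc1* (-3.48), *Bdkrb2* (-3.31) and *Il11* (-3.21) completed the 15 largest log2 decreases.

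**Figure D2:**
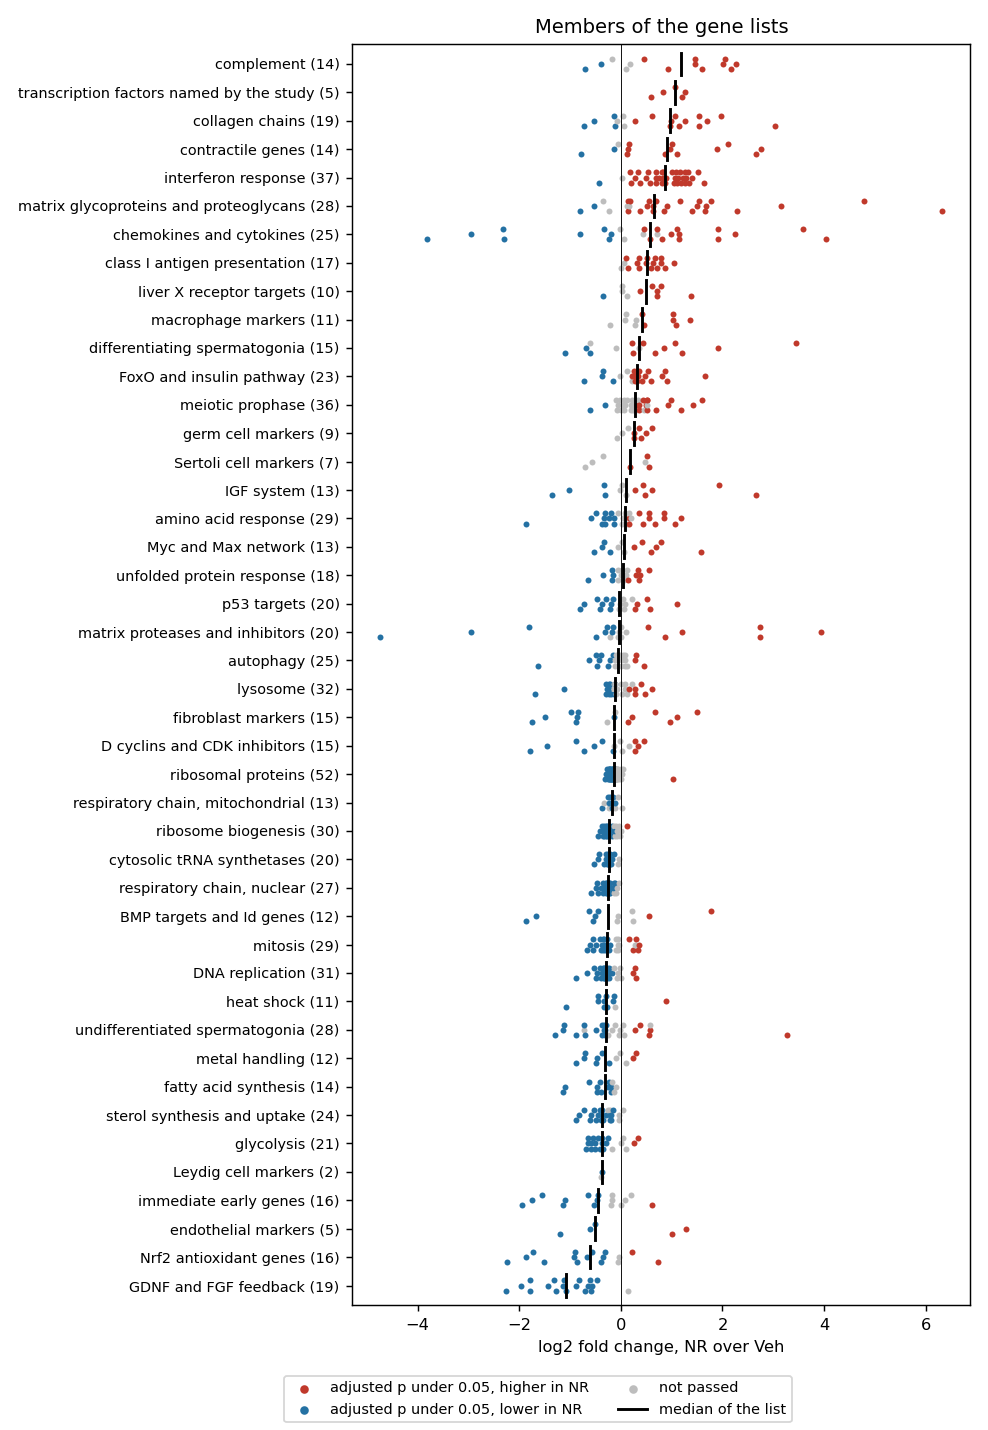
Each row is a gene list with its number of tested members in brackets, each point 1 member's log2 fold change in NR over Veh, red or blue where it passed the test, and the black bar the list's median. The medians run from -1.07 for GDNF and FGF feedback to 1.19 for complement, and lists of metabolism and cell division sit slightly below 0.

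The amino acid response did not move as 1 unit. Of 29 tested members, 11 passed as higher and 11 as lower in NR, and the median log2 fold change was 0.077; without NR replicate 2 or without Veh replicate 1, 7 passed as lower. *Pycr1*, an enzyme of proline synthesis, rose from 6.44 and 6.31 CPM to 15.5 and 13.6 CPM (log2 fold change 1.18 ± 0.11 SE, adjusted p = 2.7e-09). *Nupr1*, a stress-induced chromatin protein, rose from 22.1 and 21.1 CPM to 46.6 and 43.4 CPM (log2 fold change 1.06 ± 0.075 SE, adjusted p = 7.2e-12). *Pck2*, the mitochondrial phosphoenolpyruvate carboxykinase, rose from 29.03 and 25.7 CPM to 48.4 and 49.7 CPM (log2 fold change 0.84 ± 0.071 SE, adjusted p = 1.9e-10). The regulators *Atf5* (0.68), *Trib3* (0.55) and *Ddit3* (0.36) and the glutathione-degrading enzyme *Chac1* (0.43) rose less, and *Atf4* itself rose by 0.17 ± 0.051. The call of *Chac1* was lost under 6 of the 10 alternative settings, each single library left out included. In contrast, *Slc7a11*, the cystine importer, fell from 40.5 and 46.7 CPM to 11.4 and 12.3 CPM (log2 fold change -1.87 ± 0.086 SE, adjusted p = 7e-16). The serine synthesis enzymes *Psat1* (-0.59) and *Phgdh* (-0.19) and the transporter chains *Slc7a5* (-0.31) and *Slc3a2* (-0.30) fell as well. Of these, *Atf5*, *Chac1*, *Atf4*, *Psat1*, *Phgdh*, *Slc7a5* and *Slc3a2* were chosen after their values were seen, and the call of *Phgdh* was lost without NR replicate 1 or Veh replicate 1. *Asns*, the asparagine synthetase and a widely used readout of ATF4, was at 60.9 and 60.2 CPM in Veh and 55.2 and 54.8 CPM in NR (log2 fold change -0.14 ± 0.055 SE, adjusted p = 0.041), a difference that lost its call under 7 of the 10 alternative settings. *Fgf21*, another member, was not tested because of low counts.

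Cytosolic tRNA synthetases, which charge tRNAs with their amino acids, were lower as a list: 18 of 20 passed as lower and 0 as higher, with a median log2 fold change of -0.24. None was called at a fold of 2. *Rars* fell from 244 and 257 CPM to 175 and 172 CPM (log2 fold change -0.53 ± 0.044 SE, adjusted p = 1.8e-10) and *Sars* fell from 195 and 204 CPM to 147 and 144 CPM (log2 fold change -0.45 ± 0.046 SE, adjusted p = 5.8e-09). *Aars* changed by -0.19 ± 0.041 and *Gars* by -0.21 ± 0.041 on the log2 scale, both past the test, and *Wars* was at 83.7 and 73.2 CPM in Veh and 76.4 and 74.3 CPM in NR (adjusted p = 0.43).

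One known promoter element of this response was present in members that moved in opposite directions. The amino acid response element bound by ATF4 was searched as TGATGNAA on both strands in RefSeq promoters (GRCm38.p6, 250 bases before to 50 after a gene's start). It was found in 9 of 26 promoters of the amino acid response (34.6%), in 5 of 12 of the tRNA synthetases (41.7%) and in 380 of 13288 tested genes with a promoter (2.86%). Of the 9 amino acid response genes with the element, 5 passed as higher and 3 as lower, and of the 5 synthetases all passed as lower. Of all genes with the element, 111 passed as higher and 79 as lower. The stretches shown run 5′ to 3′ on the gene's strand around the element, which is in capitals in whichever orientation it was found. *Pycr1*, *Nupr1* and *Pck2* rose, *Slc7a11* and *Aars* fell, and *Asns* hardly moved.
Pycr1 (chr11:120643819-120643876, - strand): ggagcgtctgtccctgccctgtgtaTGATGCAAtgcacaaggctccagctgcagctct
Nupr1 (chr7:126625548-126625605, - strand): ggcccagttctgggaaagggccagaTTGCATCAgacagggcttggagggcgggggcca
Pck2 (chr14:55540138-55540195, + strand): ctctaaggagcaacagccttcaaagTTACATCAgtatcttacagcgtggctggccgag
Slc7a11 (chr3:50443628-50443685, - strand): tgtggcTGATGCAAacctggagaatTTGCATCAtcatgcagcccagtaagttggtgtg
Asns (chr6:7693210-7693257, - strand): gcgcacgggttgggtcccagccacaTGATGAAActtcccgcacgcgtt
Aars (chr8:111033705-111033762, + strand): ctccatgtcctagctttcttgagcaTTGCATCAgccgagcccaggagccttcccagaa

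Core autophagy genes changed little. Of 25 members, 3 passed as higher and 9 as lower, and the median log2 fold change was -0.062; 7 passed as higher with the trend with GC content and length removed, and 5 without Veh replicate 1. *Map1lc3b*, the membrane-bound LC3 protein, was at 144 and 145 CPM in Veh and 133 and 138 CPM in NR (adjusted p = 0.12). The cargo receptor *Sqstm1* fell from 503 and 487 CPM to 375 and 378 CPM (log2 fold change -0.39 ± 0.038 SE, adjusted p = 3e-09). *Wipi1* was the member with the largest increase (0.45 ± 0.05; chosen after its value was seen), and *Atg9b* the one with the largest decrease (-1.63 ± 0.19). Lysosomal genes divided in the same way, with 6 higher and 13 lower of 32 and a median of -0.11; without NR replicate 2, 8 were lower. The mRNA of *Tfeb* fell from 45.3 and 39.5 CPM to 12.7 and 13.7 CPM (log2 fold change -1.68 ± 0.089 SE, adjusted p = 1.4e-14). The protease *Ctsl* fell from 2130 and 2247 CPM to 1000 and 1013 CPM (log2 fold change -1.12 ± 0.037 SE, adjusted p = 6.1e-19; 26.8% of its exon bases overlap *Gm47123*, on the opposite strand). *Rragd* and *Fnip1*, which act on mTORC1 at the lysosome, rose by 0.62 ± 0.05 and 0.47 ± 0.082 on the log2 scale. The TFEB element TCACGTGA stood in 5 of 24 lysosomal promoters (20.8%) and in 0 of 21 autophagy promoters, against 1.87% of all. Of the 5 genes 1 passed, as lower. Of all genes with the TFEB element, 57 passed as higher and 63 as lower.

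Genes of sterol and fatty acid synthesis were mostly lower. All 19 members of sterol synthesis and uptake that passed, of 24 tested, were lower in NR (median -0.36). The sterol element TCACNCCAC was found in the promoter of *Hmgcs1* (-0.19 ± 0.046) and in no other of the 16 promoters of this list. In fatty acid synthesis, 11 of 14 genes passed as lower and 0 as higher (median -0.32). The desaturase *Scd1* fell from 94.6 and 95.6 CPM to 42.6 and 43.8 CPM (log2 fold change -1.14 ± 0.056 SE, adjusted p = 2.8e-15), and *Mid1ip1* fell by 1.11 ± 0.068 (25.5% of its exon bases overlap *Gm14493*, on the opposite strand). Among targets of the liver X receptors, which sense oxysterols, 6 of 10 passed as higher and 1 as lower (median 0.49). *Abca1*, the cholesterol exporter, rose from 86.2 and 103 CPM to 242 and 252 CPM (log2 fold change 1.39 ± 0.057 SE, adjusted p = 5.9e-17). *Mylip*, a ubiquitin ligase, rose by 0.80 ± 0.091, while *Abcg1* was at 43.3 and 38.98 CPM in Veh and 40.8 and 42.3 CPM in NR (adjusted p = 0.88).

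Genes of FoxO and insulin signalling were mostly higher: 16 of 23 passed as higher and 4 as lower (median 0.32). *Fbxo32*, the ubiquitin ligase atrogin-1 of muscle wasting, rose from 31.6 and 32.5 CPM to 99.9 and 101 CPM (log2 fold change 1.65 ± 0.06 SE, adjusted p = 4.8e-18). *Pdk4*, which blocks entry of pyruvate into the citric acid cycle, rose from 4.95 and 6.04 CPM to 10.4 and 10.1 CPM (log2 fold change 0.90 ± 0.13 SE, adjusted p = 2.1e-06). *Pik3r1* (0.81), *Foxo3* (0.54), *Foxo1* (0.33) and *Irs2* (0.32), which encode a PI3 kinase subunit, FoxO factors and an insulin receptor substrate, rose as well. *Arrdc4* and *Txnip*, which respond to glucose, were among those that fell (-0.73 and -0.15; chosen after their values were seen), and the call of *Txnip* was lost without NR replicate 1 or NR replicate 2.

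**Figure D3:**
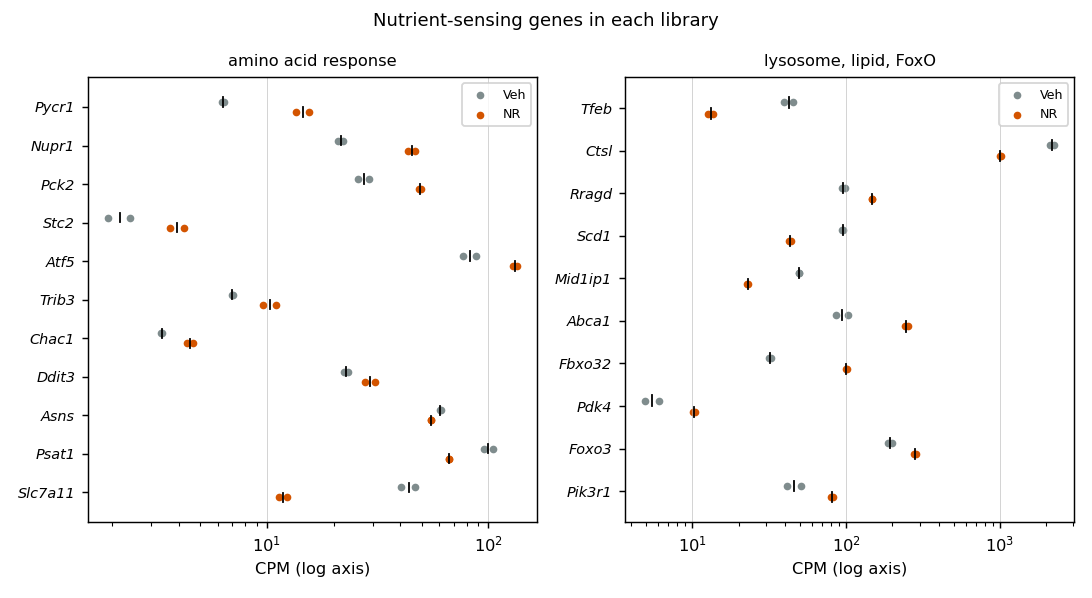
Points are the 2 Veh (grey) and 2 NR (orange) libraries, in CPM on a log axis, and short bars their means, for amino acid response genes and for lysosomal, lipid and FoxO genes. *Pycr1* and *Fbxo32* lie to the right in NR, and *Slc7a11*, *Tfeb* and *Scd1* to the left, without overlap of the libraries.

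Energy metabolism and the protein synthesis machinery were lower by small amounts. In glycolysis 15 of 21 genes passed as lower and 2 as higher (median -0.37). *Pkm*, pyruvate kinase, fell from 1693 and 1589 CPM to 1043 and 1008 CPM (log2 fold change -0.68 ± 0.04 SE, adjusted p = 1.2e-13). *Hk2*, hexokinase 2, fell from 254 and 239 CPM to 165 and 161 CPM (log2 fold change -0.60 ± 0.046 SE, adjusted p = 3.6e-11). Of the nuclear genes of the respiratory chain, 23 of 27 passed as lower (median -0.25), and of the mitochondrial ones 8 of 13 (median -0.17), with none of either list higher; without NR replicate 2, 13 of the nuclear ones passed. Ribosome biogenesis had 21 lower and 1 higher of 30 (median -0.23), and the ribosomal proteins 33 lower and 1 higher of 52 (median -0.13). The higher one, *Rpl24*, was counted at 1.11 CPM or less in all 4 libraries, lost its call under 5 of the 10 alternative settings, and 47% of its exon bases overlap *Gm28037*, on the same strand. *Myc*, an activator of these genes, fell from 40.3 and 40.8 CPM to 27.6 and 28.3 CPM (log2 fold change -0.53 ± 0.066 SE, adjusted p = 2.2e-07). *Mxd4* and *Mga*, which encode antagonists of MYC in the MAX network, rose by 0.78 ± 0.049 and 0.60 ± 0.052. *Mycl* rose from 3.81 and 3.91 CPM to 11.1 and 12 CPM (log2 fold change 1.58 ± 0.14 SE, adjusted p = 4.2e-10). *Mycn* was at 59.4 and 54.4 CPM in Veh and 54.8 and 54.5 CPM in NR (adjusted p = 0.48).

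Interferon-stimulated genes were higher almost throughout. Interferons act on a promoter element named ISRE, and the products of the induced genes block viruses, sense nucleic acids and present antigen. Of 37 such genes, 35 passed as higher and 1 as lower, 17 and 0 of them at a fold of at least 2, and the median log2 fold change was 0.88. *Mx1*, an antiviral GTPase, rose from 5.50 and 5.78 CPM to 17.01 and 18.1 CPM (log2 fold change 1.64 ± 0.12 SE, adjusted p = 7.7e-12). The guanylate-binding protein gene *Gbp3* rose from 34.1 and 35.4 CPM to 104 and 93.9 CPM (log2 fold change 1.51 ± 0.07 SE, adjusted p = 9.8e-16). *Isg15*, a ubiquitin-like modifier, rose from 98.8 and 76.3 CPM to 199.6 and 182 CPM (log2 fold change 1.12 ± 0.074 SE, adjusted p = 1.6e-12), and both Veh libraries lay well below both NR libraries although they differed from each other. The regulator *Irf7* rose by 1.07 ± 0.064. *Sp100* (1.41) and *Gbp2* (1.34) followed, while *Ifi27* fell (-0.44) and *Trim25* did not pass (199.6 and 185 CPM in Veh and 191 and 197 CPM in NR), both named after their values were seen. In class I antigen presentation 15 of 17 genes passed as higher and none as lower (median 0.51), among them *H2-K1* (461 and 429 CPM in Veh and 678 and 666 CPM in NR, log2 fold change 0.59 ± 0.041), *B2m* (0.36 ± 0.036) and the peptide transporter *Tap1* (0.78 ± 0.055).

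The ISRE core, searched as TTCNNTTTC on both strands in the same promoters, was present in 15 of 26 promoters of the interferon genes (57.7%), in 4 of 15 of the class I genes (26.7%) and in 1144 of all 13288 (8.61%). Of the 15 interferon genes with the core, 14 passed as higher and 0 as lower. Of all genes with it, 342 passed as higher and 261 as lower. The stretches shown hold the promoter elements of 5 genes that rose at least 2-fold, with every match in capitals, overlapping matches merged.
Gbp2 (chr3:142620580-142620638, + strand): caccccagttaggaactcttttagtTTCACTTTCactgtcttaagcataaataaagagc
Gbp3 (chr3:142559981-142560039, + strand): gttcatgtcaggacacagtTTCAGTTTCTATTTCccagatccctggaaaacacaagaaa
Isg15 (chr4:156200851-156200909, - strand): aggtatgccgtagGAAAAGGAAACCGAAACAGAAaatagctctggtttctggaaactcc
Ifit1 (chr19:34640780-34640838, + strand): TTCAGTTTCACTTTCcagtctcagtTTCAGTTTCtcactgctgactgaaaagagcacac
Ifit3 (chr19:34583402-34583460, + strand): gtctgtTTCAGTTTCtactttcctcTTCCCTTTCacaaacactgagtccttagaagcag
*Ifit1* and *Ifit3*, printed for their repeated elements and chosen after their values were seen, rose from 151 and 135 CPM to 295 and 282 CPM and from 80.8 and 68.8 CPM to 181 and 159 CPM.

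Chemokines and cytokines moved in both directions. Of 25 genes, 13 passed as higher and 8 as lower, 8 and 4 at a fold of at least 2 (median 0.58). *Cxcl9*, which attracts T cells, rose from 3.12 and 2.50 CPM to 32.04 and 35.5 CPM (log2 fold change 3.58 ± 0.12 SE, adjusted p = 1.3e-18). *Cxcl10*, with the same receptor, rose from 34.5 and 27.9 CPM to 158 and 140.5 CPM (log2 fold change 2.25 ± 0.088 SE, adjusted p = 2e-17). *Ccl20* rose from a level near 0 (0.347 and 0.0521 CPM in Veh and 3.66 and 3.23 CPM in NR; log2 fold change 4.04 ± 0.37 SE, adjusted p = 9.9e-10), with 5.92 without Veh replicate 1 and 3.30 without Veh replicate 2. *Il6* rose from 10.01 and 10.4 CPM to 23.9 and 21.3 CPM (log2 fold change 1.14 ± 0.10 SE, adjusted p = 5.6e-10). *Il33*, an alarmin of stromal cells, fell from 124 and 143 CPM to 10.2 and 8.85 CPM (log2 fold change -3.81 ± 0.081 SE, adjusted p = 5.7e-23). *Csf2*, which acts on myeloid cells, fell from 5.003 and 6.83 CPM to 0.674 and 0.835 CPM (log2 fold change -2.94 ± 0.23 SE, adjusted p = 6.8e-11). *Lif*, a ligand of the IL-6 family that is chosen here after its value was seen, fell from 109 and 105 CPM to 20.96 and 21.7 CPM (log2 fold change -2.32 ± 0.061 SE, adjusted p = 4.6e-21). *Ccl2*, which attracts monocytes, was at 686 and 753 CPM in Veh and 645 and 616 CPM in NR (log2 fold change -0.19 ± 0.044 SE, adjusted p = 0.00085), a call lost without NR replicate 2. In the complement list 9 of 14 passed as higher and 2 as lower (median 1.19). The protease *C1ra* rose from 14.7 and 13.8 CPM to 69.5 and 67.1 CPM (log2 fold change 2.26 ± 0.069 SE, adjusted p = 1.3e-19), as did its partner *C1s1* (2.00) and the inhibitor *Serping1* (2.17). The central component *C3* rose from 97.6 and 97.7 CPM to 267 and 268 CPM (log2 fold change 1.45 ± 0.045 SE, adjusted p = 1.8e-19).

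Macrophage markers moved with these immune genes, and their part in the immune values was not tested. Their summed level was 286 and 282 CPM in Veh and 336 and 335 CPM in NR. Of the list, 6 of 11 passed as higher and 0 as lower. *Ptprc* was at 2.87 and 4.53 CPM in Veh and 10.1 and 8.88 CPM in NR (1.36 ± 0.16) and *C1qb* at 5.10 and 4.48 CPM in Veh and 10.98 and 8.73 CPM in NR (1.02 ± 0.15). The defining marker *Csf1r* was at 24.7 and 23.7 CPM in Veh and 25.97 and 25.4 CPM in NR (adjusted p = 0.4) and *Adgre1*, which encodes F4/80, at 56.7 and 58.4 CPM in Veh and 76.3 and 76.2 CPM in NR (0.41 ± 0.059). Within this list, log2 fold changes ran from -0.21 to 1.36, with a median of 0.41.

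Many extracellular matrix genes, which fibroblasts are known to express strongly, were higher. Collagen chains had 12 higher and 4 lower members of 19, 8 and 0 at a fold of at least 2 (median 0.98), and their summed level was 15020 and 14820 CPM in Veh and 28110 and 29800 CPM in NR. *Col1a1*, a chain of the fibrillar collagen I, rose from 3761 and 3723 CPM to 7628 and 8110 CPM (log2 fold change 1.07 ± 0.038 SE, adjusted p = 2.8e-18). *Col3a1*, of collagen III, rose from 1390 and 1402 CPM to 3902 and 4212 CPM (log2 fold change 1.54 ± 0.04 SE, adjusted p = 4.8e-21). *Col12a1*, which coats such fibrils, rose from 688 and 729 CPM to 2238 and 2361 CPM (log2 fold change 1.70 ± 0.041 SE, adjusted p = 7.9e-22). *Col11a1*, which nucleates them, rose from 27.99 and 31.9 CPM to 239 and 253 CPM (log2 fold change 3.04 ± 0.061 SE, adjusted p = 2e-23). Among matrix glycoproteins and proteoglycans 22 of 28 passed as higher and 2 as lower (median 0.66). Beside *Aspn* and *Ogn*, *Prelp* rose by 3.14 ± 0.067. The microfibril protein *Mfap4* rose from 22.8 and 20.7 CPM to 106 and 108 CPM (log2 fold change 2.29 ± 0.063 SE, adjusted p = 1.4e-20). *Fn1*, fibronectin, rose only by 0.14 ± 0.033 from a high level (9155 and 9098 CPM in Veh and 9951 and 10220 CPM in NR).

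The proteases that cut matrix moved apart. Of 20 proteases and inhibitors 6 passed as higher and 8 as lower (median -0.042). *Adamts5*, which cleaves proteoglycans, rose from 15.2 and 17.8 CPM to 246 and 259 CPM (log2 fold change 3.94 ± 0.064 SE, adjusted p = 4.8e-25). *Adamts1*, of the same family, rose from 26.9 and 29.03 CPM to 184 and 191 CPM (log2 fold change 2.75 ± 0.06 SE, adjusted p = 1e-22). The inhibitor *Timp3*, named after its value was seen, rose from 83.6 and 85.5 CPM to 546 and 578 CPM (log2 fold change 2.73 ± 0.048 SE, adjusted p = 1.3e-24), and 21.3% of its exon bases overlap *Syn3*, on the opposite strand. Of its relatives, *Timp1* and *Timp2* passed as lower and *Timp4* did not pass, all named after their values were seen. Beside *Mmp10*, the urokinase gene *Plau* fell from 127 and 123 CPM to 14.7 and 17.4 CPM (log2 fold change -2.95 ± 0.069 SE, adjusted p = 3.7e-22). *Mmp2*, gelatinase A, was at 606 and 591 CPM in Veh and 593 and 604 CPM in NR (adjusted p = 1).

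Contractile genes were higher, with 11 of 14 higher, 2 lower and a median of 0.92. *Acta2*, smooth muscle actin and a marker of activated fibroblasts, rose from 80.6 and 79.5 CPM to 506 and 512 CPM (log2 fold change 2.67 ± 0.043 SE, adjusted p = 4.8e-25). The myosin light chain *Myl9* rose from 30.3 and 29.2 CPM to 111 and 111 CPM (log2 fold change 1.90 ± 0.058 SE, adjusted p = 1.2e-19). *Tagln* rose by 1.01 ± 0.052 (67.9% of its exon bases overlap *Gm48529*, on the opposite strand). In the IGF system *Igf1* rose from 2.62 and 2.61 CPM to 17.4 and 15.98 CPM (log2 fold change 2.67 ± 0.15 SE, adjusted p = 3.7e-14). *Igfbp3* rose from 39.9 and 41.3 CPM to 153 and 156 CPM (log2 fold change 1.93 ± 0.055 SE, adjusted p = 2.3e-20). The binding proteins *Igfbp5* (335 and 326 CPM in Veh and 128 and 131 CPM in NR; log2 fold change -1.35 ± 0.051 SE, adjusted p = 9.6e-18) and *Igfbp4* (-1.01) fell. Over the 13 genes of this system 6 passed as higher and 4 as lower (median 0.095).

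The fibroblast markers moved in both directions beside the matrix genes. Of 15 markers, 6 passed as higher and 7 as lower (median -0.13), and their summed level was 4737 and 4779 CPM in Veh and 3233 and 3275 CPM in NR. The receptors *Pdgfra* (109 and 108 CPM in Veh and 230.2 and 234 CPM in NR) and *Pdgfrb* (269.6 and 264 CPM in Veh and 422 and 429 CPM in NR) rose by 1.10 ± 0.045 and 0.67 ± 0.04. *Dpt* rose by 1.501 ± 0.075. *Prrx1* was at 217 and 244 CPM in Veh and 252 and 254 CPM in NR (0.13 ± 0.047), a call lost with DESeq2 and without NR replicate 2 or Veh replicate 1, and a value that turned to -0.066 with the trend with GC content and length removed. *Cd34* (107 and 116 CPM in Veh and 32.4 and 33.6 CPM in NR; -1.76 ± 0.064) and *Twist2* (-1.48 ± 0.06; 46.5% of its exon bases overlap *Gm29100*, on the opposite strand) fell. *Vim*, *Lgals1* and *S100a6*, the most abundant of these markers in Veh, passed as lower too. So did *S100a4*, by which the paper identified fibroblasts, and all of these were named after their values were seen. The part of the fibroblast markers in the matrix result was not tested.

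**Figure D4:**
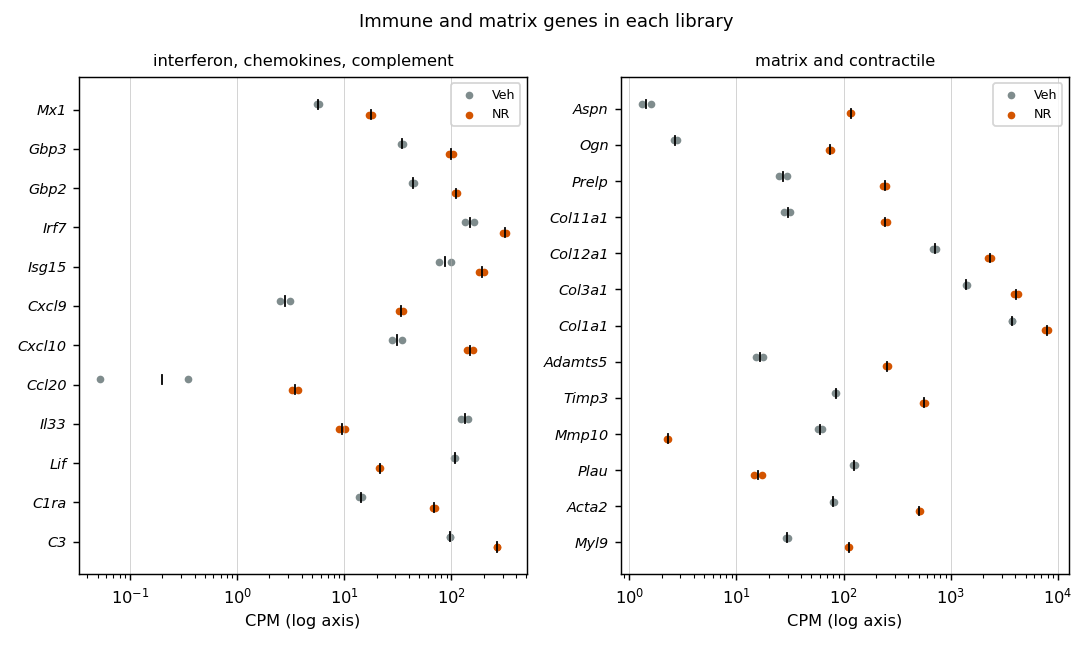
Points are the 2 Veh (grey) and 2 NR (orange) libraries, in CPM on a log axis, and short bars their means. NR lies to the right for interferon, complement and most matrix genes, and to the left for *Il33*, *Lif*, *Mmp10* and *Plau*, with no overlap of the libraries in any gene drawn.

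Genes that report on GDNF and FGF signalling were lower in NR with 1 exception. They include transcription factors induced by these ligands, inhibitors through which the MAP kinase pathway limits itself, and cyclin D1. Of 19 genes 18 passed as lower and 0 as higher, 10 of them at a fold of at least 2, with a median log2 fold change of -1.07. The MAP kinase phosphatase *Dusp6* fell from 269.9 and 277 CPM to 81.5 and 77.3 CPM (log2 fold change -1.79 ± 0.05 SE, adjusted p = 1.9e-20). Its relative *Dusp4* fell from 118 and 118 CPM to 30.4 and 30.3 CPM (log2 fold change -1.96 ± 0.056 SE, adjusted p = 2.8e-20). *Dusp5* fell by 1.07 ± 0.059 on the log2 scale, as measured with reads of which some could belong to another gene (22.1% of its exon bases overlap *AC137853.2*, on the opposite strand). Of the Sprouty and Spred inhibitors, *Spry4* fell from 132 and 132 CPM to 50.4 and 48.2 CPM (log2 fold change -1.43 ± 0.055 SE, adjusted p = 1.8e-17). *Spry2* (-0.62), *Spred1* (-0.82) and *Spred2* (-0.56) fell less. *Spry1*, the exception, was at 22.04 and 22.7 CPM in Veh and 23.99 and 25.1 CPM in NR (adjusted p = 0.16; 24.4% of its exon bases overlap *Gm42922*, on the opposite strand), and *Il17rd*, a further inhibitor, fell by 0.58 ± 0.046. Among the ETS factors *Etv1* (-1.32) and *Etv4* (-1.27) fell more than *Etv5*, a factor needed for SSC self-renewal, which fell from 188 and 171 CPM to 109 and 112 CPM (log2 fold change -0.70 ± 0.051 SE, adjusted p = 1.1e-11). *Bcl6b*, a target of GDNF in SSCs, fell from 148 and 138 CPM to 66.97 and 64.8 CPM (log2 fold change -1.12 ± 0.057 SE, adjusted p = 6.7e-15). *Lhx1*, another target, fell from 58.5 and 57.7 CPM to 29.6 and 33.1 CPM (log2 fold change -0.88 ± 0.072 SE, adjusted p = 1.1e-10). *T*, which encodes brachyury, fell from 5.99 and 7.61 CPM to 2.55 and 3.49 CPM (log2 fold change -1.15 ± 0.19 SE, adjusted p = 2.3e-05). The AP-1 gene *Fosl1* (-2.26; 57.2% of its exon bases overlap *Ccdc85b*, on the opposite strand), *Egr1* (-0.64) and *Egr2* (-0.46) fell. *Ccnd1*, cyclin D1, fell from 789 and 771 CPM to 227 and 226 CPM (log2 fold change -1.79 ± 0.039 SE, adjusted p = 7.9e-23; 23.4% of its exon bases overlap *LTO1*, on the opposite strand). Immediate early genes, which overlap this list in part, had 9 lower and 1 higher of 16 (median -0.46). *Ier3*, a survival factor, fell from 119 and 112 CPM to 29.8 and 30.4 CPM, and *Jun*, an AP-1 subunit, fell from 181 and 170.4 CPM to 61.3 and 59.3 CPM. *Egr3* fell from 25.5 and 23.3 CPM to 7.52 and 7.10 CPM. *Fos* was at 11.4 and 8.91 CPM in Veh and 8.67 and 9.26 CPM in NR (adjusted p = 0.25). Several of these genes are also expressed by fibroblasts, so their values do not say which cells changed.

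General germ cell markers were slightly higher, and none was lower: 6 of 9 passed, with a median of 0.26 and a summed level of 1020 and 1035 CPM in Veh and 1290 and 1260 CPM in NR. *Ddx4*, the germ cell helicase, was at 131 and 145 CPM in Veh and 188 and 178 CPM in NR (log2 fold change 0.40 ± 0.056 SE, adjusted p = 1.5e-06). *Dazl* was at 299 and 323 CPM in Veh and 384 and 363 CPM in NR (log2 fold change 0.26 ± 0.05 SE, adjusted p = 9.6e-05), which reversed to -0.024 once the trend with GC content and length was removed. The piRNA pathway genes *Tdrd1* (0.61), *Tdrd9* (0.50), *Piwil2* (0.35) and *Mael* (0.25) rose.

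Genes of undifferentiated spermatogonia did not fall together. Of 28 genes 5 passed as higher and 14 as lower (median -0.29), and 4 of the lower ones, *Etv5*, *Bcl6b*, *Lhx1* and *T*, are the GDNF targets above. Because RNA of the feeders is part of every library, the values of this list do not say which cells changed. *Gfra1*, the GDNF receptor of SSCs, was at 101 and 101 CPM in Veh and 108 and 100.4 CPM in NR (adjusted p = 0.54). *Zbtb16*, the repressor PLZF of undifferentiated cells, rose from 171 and 156 CPM to 239 and 249 CPM (log2 fold change 0.58 ± 0.048 SE, adjusted p = 2.1e-10). *Id4*, a marker of SSCs, rose from 14.7 and 13.9 CPM to 19.5 and 22.2 CPM (log2 fold change 0.55 ± 0.093 SE, adjusted p = 2.5e-05). *Eomes* fell from 5.35 and 3.60 CPM to 1.69 and 1.94 CPM (log2 fold change -1.30 ± 0.22 SE, adjusted p = 3.3e-05). The member with the largest change was *Neurog3*, a marker of progenitors that have left the stem cell state, which rose from 0.396 and 0.469 CPM to 4.24 and 4.18 CPM (log2 fold change 3.27 ± 0.30 SE, adjusted p = 9.4e-10).

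Several genes of differentiating spermatogonia were higher although no RA was added. Of 15 genes 9 passed as higher and 3 as lower, 4 and 1 of them at a fold of at least 2 (median 0.35). The 4 were *Stra8*, *Kit*, *Sohlh1* and *Sox3*. The study chose *Sohlh1* and *Sox3* on these same samples, so their rise is not independent evidence. *Stra8*, which RA induces at the entry into meiosis, rose from 1.14 and 1.51 CPM to 14.6 and 14.3 CPM (log2 fold change 3.44 ± 0.14 SE, adjusted p = 2.6e-17). *Kit*, the receptor for stem cell factor, rose from 6.34 and 6.31 CPM to 23.8 and 23.6 CPM (log2 fold change 1.91 ± 0.088 SE, adjusted p = 8e-16). *Prss50* fell from 1.98 and 1.88 CPM to 1.06 and 0.759 CPM (log2 fold change -1.11 ± 0.29 SE, adjusted p = 0.0026), a call that was lost without NR replicate 2, and *Sohlh2* fell by 0.60 ± 0.049 (named after its value was seen). Under RA alone *Stra8* stood at 642 ± 15.1 CPM (SD, n = 2) and *Kit* at 207 ± 6.59 CPM (SD, n = 2), above their levels in both NR libraries.

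The text of the study spells out 5 of the transcription factors it chose on these same samples, *Sohlh1*, *Sox3*, *Pou2f2*, *Bcl11a* and *Ascl2*; any others it chose were not analysed here as a list. Because of that choice, their direction is not independent evidence. *Sohlh1* was at 25.9 and 22.98 CPM in Veh and 50.9 and 51.6 CPM in NR (log2 fold change 1.07 ± 0.075 SE, adjusted p = 5.9e-12). *Sox3* was at 23.2 and 19.6 CPM in Veh and 48.6 and 49.7 CPM in NR (log2 fold change 1.20 ± 0.075 SE, adjusted p = 4.9e-13). *Pou2f2* was at 9.56 and 10.4 CPM in Veh and 25.7 and 22.2 CPM in NR (log2 fold change 1.26 ± 0.10 SE, adjusted p = 1.4e-10). *Bcl11a* was at 1.73 and 2.50 CPM in Veh and 3.95 and 3.57 CPM in NR (log2 fold change 0.83 ± 0.22 SE, adjusted p = 0.0031). *Ascl2* was at 2.13 and 2.50 CPM in Veh and 3.28 and 3.65 CPM in NR (log2 fold change 0.59 ± 0.21 SE, adjusted p = 0.024). The libraries of both groups were separate for all 5, but the last 2 lost their calls when 1 library was left out (*Bcl11a* without Veh replicate 1, *Ascl2* without NR replicate 2 or Veh replicate 1), and *Ascl2* also with DESeq2.

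Genes of meiotic prophase were slightly higher as a list, and most stayed at low levels. Of 36 genes, 14 passed as higher, 2 as lower and 20 did not pass (median 0.28, beside 0.26 for the general germ cell markers). With DESeq2, 9 passed as higher. The part of a shift of all germ cell RNA in this list was not tested. *Sycp2*, of the lateral elements of the synaptonemal complex, rose from 20.2 and 18.3 CPM to 43.2 and 44.5 CPM (log2 fold change 1.19 ± 0.12 SE, adjusted p = 6e-09). Its partner *Sycp3* rose from 9.02 and 10.8 CPM to 19.5 and 19.9 CPM (log2 fold change 0.99 ± 0.10 SE, adjusted p = 6.5e-09), and 52.2% of its exon bases overlap *Chpt1*, on the opposite strand. *Gm4969*, which encodes the regulator MEIOSIN, rose from 1.14 and 0.938 CPM to 2.89 and 3.34 CPM (log2 fold change 1.59 ± 0.24 SE, adjusted p = 6.1e-06), and the helicase *Hfm1* rose from 1.34 and 0.990 CPM to 2.89 and 3.34 CPM (log2 fold change 1.42 ± 0.24 SE, adjusted p = 2.8e-05). *Dmc1*, the meiotic recombinase, was at 7.48 and 8.18 CPM in Veh and 9.06 and 9.34 CPM in NR (adjusted p = 0.13). *Spo11*, which makes meiotic breaks, was at 1.19 and 1.41 CPM in Veh and 2.31 and 2.58 CPM in NR (log2 fold change 0.92 ± 0.27 SE, adjusted p = 0.0074), a call lost without NR replicate 2 or Veh replicate 1.

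**Figure D5:**
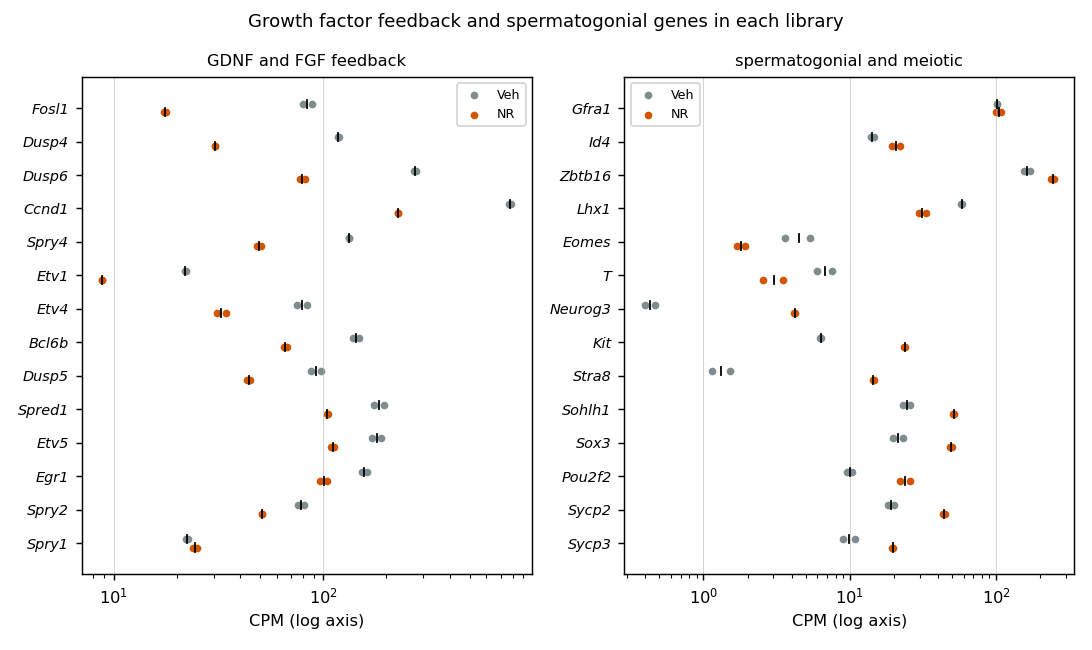
Points are the 2 Veh (grey) and 2 NR (orange) libraries, in CPM on a log axis, and short bars their means. All feedback genes drawn but *Spry1* lie to the left in NR, while *Neurog3*, *Stra8* and *Kit* lie to the right and *Gfra1* overlaps.

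Genes of the cell cycle were modestly lower. For DNA replication 23 of 31 passed as lower and 3 as higher (median -0.28), and for mitosis 17 of 29 passed as lower and 5 as higher (median -0.28). The latter were 1 with DESeq2 or with the GC and length trend removed, and 3 without NR replicate 1. *Rrm2*, which supplies deoxynucleotides, fell from 79.1 and 76.9 CPM to 42.5 and 42.03 CPM (log2 fold change -0.89 ± 0.056 SE, adjusted p = 7.6e-13). *Mcm2*, of the replicative helicase, fell by 0.33 ± 0.045. The mitotic kinase *Plk1* fell from 59.3 and 54.2 CPM to 36.7 and 37.9 CPM (log2 fold change -0.61 ± 0.061 SE, adjusted p = 7.1e-09). *Mki67* was at 189.9 and 183 CPM in Veh and 225 and 214 CPM in NR (log2 fold change 0.23 ± 0.071 SE, adjusted p = 0.0087), a call lost with DESeq2, with the trend with GC content and length removed, and without NR replicate 1. The E2F element TTTNNCGC was found in 14 of 25 replication promoters (56%) against 8.96% of all. Of these 14 genes 10 passed as lower and 1 as higher, beside 23 of 31 lower in the whole replication list. Of all genes with the E2F element, 274 passed as higher and 324 as lower. Among cyclin-dependent kinase inhibitors *Cdkn2b* fell from 147 and 141 CPM to 53.2 and 52.3 CPM (log2 fold change -1.45 ± 0.051 SE, adjusted p = 2.7e-18). *Cdkn1a*, p21, was at 665 and 629 CPM in Veh and 637 and 639.6 CPM in NR (adjusted p = 0.75). Over D cyclins and inhibitors 4 were higher and 7 lower of 15 (median -0.13).

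Stress pathways other than the amino acid response were mixed or lower. Targets of p53 had 5 higher and 9 lower of 20 (median -0.027). The death receptor *Fas* was at 23.7 and 27.6 CPM in Veh and 55.3 and 54.9 CPM in NR (log2 fold change 1.10 ± 0.07 SE, adjusted p = 7.3e-13). *Mdm2* was at 462 and 515 CPM in Veh and 356 and 348 CPM in NR (-0.48 ± 0.044). The unfolded protein response had 6 higher and 5 lower of 18 (median 0.043; 3 were lower without NR replicate 1), and the chaperone *Hspa5* was at 539 and 552 CPM in Veh and 579 and 566 CPM in NR (adjusted p = 0.14). Heat shock genes had 9 lower and 1 higher of 11 (median -0.28), *Hspb1* falling from 54.6 and 50.8 CPM to 24.6 and 24.98 CPM (log2 fold change -1.09 ± 0.069 SE, adjusted p = 6.7e-13). Antioxidant genes under NRF2 had 12 lower and 2 higher of 16 (median -0.61). *Nqo1*, a quinone reductase, fell from 35.5 and 31.8 CPM to 6.65 and 7.59 CPM (log2 fold change -2.23 ± 0.097 SE, adjusted p = 2.1e-16). *Hmox1*, heme oxygenase, fell from 357 and 337 CPM to 105 and 105 CPM (log2 fold change -1.73 ± 0.046 SE, adjusted p = 5.8e-21). *Gclm* was at 62.1 and 57.6 CPM in Veh and 56.9 and 57.9 CPM in NR (adjusted p = 0.43). The metallothionein *Mt1* fell by 0.71 ± 0.051, in a metal handling list of 7 lower and 2 higher genes of 12 (median -0.31). Among BMP targets and Id genes *Bmp4*, a ligand, rose from 6.93 and 7.04 CPM to 23.1 and 24.8 CPM (log2 fold change 1.78 ± 0.098 SE, adjusted p = 3.9e-14). Its antagonist *Grem1* fell from 352 and 409 CPM to 123 and 117 CPM (log2 fold change -1.67 ± 0.056 SE, adjusted p = 8.4e-19). The targets *Id1* (-0.63) and *Id3* (-0.44) fell; 2 of 12 passed as higher and 6 as lower (median -0.26).

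Whether restriction acted alike without and with RA was tested as the log2 fold change of NRRA over RA minus that of NR over Veh. At an adjusted p under 0.05 and an absolute difference of at least 1 on the log2 scale, 459 genes, 2.24%, were called. *Gfra1*, which did not pass without RA, changed by -1.48 under restriction with RA (difference -1.52 ± 0.079, adjusted p = 2e-13). For *Dusp6* the decrease was larger with RA (-3.18, difference -1.39 ± 0.08, adjusted p = 1.6e-12). *Stra8*, already high under RA, changed by 0.55 there (difference -2.90 ± 0.15, adjusted p = 1.8e-13). For *Isg15* (0.056 ± 0.10, adjusted p = 0.79) and *Ccnd1* (-0.00046 ± 0.054, adjusted p = 1) no difference passed.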

How the data were processed

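Poly(A) RNA of 8 libraries, 2 per condition, was sequenced by the authors, who deposited read counts per Ensembl gene without normalization. The submitters' processing notes name bcl2fastq, STAR 2.6.1c, featureCounts 1.6.4 and the mouse build mm10. The strand setting of the counting was not given in the sources used here, so reads of a gene and of an overlapping or antisense gene may not be told apart, and the overlap of exons is given beside genes where it is large. Symbols, positions, GC content and length came from GENCODE M21 (GRCm38) for 55154 of 55421 IDs, and promoters from RefSeq (GRCm38.p6).

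Genes were filtered with filterByExpr and counts scaled by TMM, and edgeR 4.0.16 (R 4.3.3) fitted 1 coefficient per condition over all 8 libraries by the quasi-likelihood method, with 4 residual degrees of freedom and Benjamini-Hochberg adjustment over 20477 genes. Levels are CPM after TMM scaling; standard errors are the log2 fold change over the square root of F. Counts of 19934 genes were simulated with 200 changed for NR against Veh. The fit called 95 of 100 genes with a log2 fold change of 1.5 in size and 99 of 100 with 2, with 1 false call. The changed genes were drawn from the better counted ones, and the counts from the spread estimated by the same fit. Smaller changes and passing without the fold threshold were not simulated, so their error rates are not known from it.

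The gene lists, the comparison and the rule for named genes were chosen with earlier results of these data known. The rule took the 15 called genes with the largest log2 increase and decrease whose mean count was 50 or more, with no overlap of the libraries and a symbol that is no clone name, the first 3 members of each list and its 4 passed members with the largest change, all GDNF and FGF feedback genes, and the 5 transcription factors spelled out in the study's text. Genes outside it are marked in the text as chosen after their values were seen. Some members of the lists are not reported here by name.

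Alternatives were DESeq2 1.42.0, its size factors, no filter on low counts, no fold threshold, the 4 NR and Veh libraries alone, a replicate block, removal of the trend with GC content and length (mgcv 1.9.3; 20448 tested genes with GC content) and leaving out each library. Some of the alternatives for the interaction were added after seeing the data. Same-numbered libraries of different conditions did not deviate together (correlations of -0.0716 to 0.0778), so the numbers were not used as pairs. P-values measure the spread between these libraries, which may be technical in part.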

Additional observations from a re-analysis of the deposited data

Results flagged for a closer look

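For 27 of 198 genes with values above, restriction differed without and with RA by at least 1 on the log2 scale at an adjusted p under 0.05, by the interaction term of edgeR's quasi-likelihood test, against 2.24% of all tested genes called. The 198 genes were chosen in part for large changes without RA, so this share is a description. Values are the log2 fold change of NRRA over RA minus that of NR over Veh. Among genes that rose without RA the differences were -4.40 for *Lgr5*, -2.90 for *Stra8*, -2.54 for *Dio3*, -1.89 for *Egfl6*, -1.47 for *Timp3*, -1.26 for *Aspn*, -1.12 for *Kit*, -1.09 for *Il6*, -1.07 for *Col11a1*, -1.03 for *Nupr1* and -1.03 for *Plscr2*, and 1.33 for *Acta2* and 1.39 for *Id4*. Among signalling genes that fell without RA they were -2.11 for *Egr3*, -1.39 for *Dusp6*, -1.29 for *Egr2*, -1.18 for *Etv5* and -1.11 for *Egr1*. Of the other genes that fell, *Igfbp4* differed by -1.47, while *Igfbp5* (1.72), *Areg* (1.99), *Cck* (1.32), *Chrna1* (1.23), *Prss50* (1.16) and *Twist2* (1.13) differed upwards. *Gfra1* (-1.52) and *Spry1* (1.18) did not pass without RA. No group had enough libraries for a test of single outlying samples.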

How the results depend on the processing

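The counts of 1092 higher and 606 lower genes were 860 and 522 with DESeq2, 1087 and 608 with its size factors, 1215 and 617 without the filter on low counts, 1036 and 563 with the 4 libraries alone, and 1049 and 603 with the GC and length trend removed, and ranged over 1031 to 1127 and 543 to 579 with 1 library left out. Leaving out 1 library moved the change of *Lgr5*, *Ccl20*, *Sprr2h*, *Lce1g* and *Rpl24* by over 1.5 times, and *Rpl24* was at 1.80 without Veh replicate 2. Without the fold threshold they were 4443 and 4542. The replicate block gave 1089 and 601, and same-numbered libraries did not deviate together. The interaction count of 459 was 451 under the replicate block, 466, 524 and 486 with DESeq2 size factors, no filter and the trend removed, and 384 to 517 with 1 library left out. Of 1980 values of 198 genes under these alternatives, 1920 kept direction and side of the threshold, 36 lost a call, 6 gained one and 18 changed sign; the calls lost are given beside the genes. With the trend removed the log2 fold change was -0.024 for *Dazl* and -0.066 for *Prrx1*, both of which passed as higher above, and 0.025 for *Cdkn1a* and 0.049 for *Mmp2*, which had not passed. *Mmp2* was at 0.0097 without the filter, 0.00998 with the 4 libraries alone and 0.00033 under the replicate block. With 1 library left out the ranges crossed 0 for 8 genes that had not passed, with -0.044 to 0.11 for *Abcg1*, -0.046 to 0.0401 for *Cdkn1a*, -0.33 to 0.032 for *Fos*, -0.10 to 0.014 for *Gclm*, -0.0063 to 0.037 for *Mmp2*, -0.11 to 0.025 for *Mycn*, -0.027 to 0.089 for *Trim25* and -0.14 to 0.058 for *Wars*. The cause was not tested.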
